A study of Mus musculus with 10 samples.

Results

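The potassium channel genes described here were the 92 autosomal protein-coding genes whose symbol begins with Kcn, of 20696 autosomal protein-coding genes in the mouse annotation. They were examined in wild-type microglia of C57/Bl6 mice (young adult males, per the study's methods), sorted from brain as CD11b+CD45lowCX3CR1+ cells. Each gene was described by histone H3 lysine 4 trimethylation (H3K4me3) at its transcription start sites (TSSs), from chromatin immunoprecipitation followed by sequencing (ChIP–seq) of 2 libraries, and by the interactions of its start sites in a list of chromatin contacts combined from 2 libraries of proximity ligation-assisted ChIP–seq (PLAC-seq). The series also holds 2 input libraries, whose tags are given beside each peak, and Hi-C libraries of 2 wild-type and 2 Sall1 enhancer knockout samples, which were not analysed here. All values are therefore levels in unperturbed wild-type microglia, with no comparison between genotypes or treatments and no test. Nothing in the labels ties the 2 replicates to separate animals, and the spread between them may be technical.

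Potassium channels let potassium ions leave the cell and so set the resting potential and shape electrical signals. The pore-forming subunits fall into voltage-gated channels, inward rectifiers, tandem-pore domain channels, which give a background conductance, and channels opened by internal calcium or sodium, and auxiliary subunits change their gating and trafficking. Neurons use many of these genes, whereas microglia are known for a few. In microglia and macrophages the tandem-pore channel of Kcnk13 gives the tonic conductance, that of Kcnk6 takes part in the potassium efflux that precedes inflammasome activation, and the channels of Kcna3, Kcna5, Kcnj2 and Kcnn4 have been recorded as voltage-gated, inwardly rectifying and calcium-activated currents. H3K4me3 marks promoters that are active or held ready for transcription.

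A gene was called marked when both replicates held a peak within 1 kb of one of its start sites. Its value was the height of the tallest such peak in tags per 10 M sequenced tags, averaged over both replicates. Peaks had a fixed width of 184 bp in replicate 1 and 188 bp in replicate 2, so that values can be compared between genes, but a value is the height at one place and not the whole marked domain. The replicates held 27845 and 26574 peaks at depths of 12.8 M and 13.4 M tags, and the lowest deposited peaks had 3.9 and 2.24 tags per 10 M. The microglial identity of the sample was checked on marker genes. All 8 microglia markers were marked, with values between 123 and 301. Of the markers of other cells, 4 of 8 of neurons were marked (9.16 to 16.3), 4 of 6 of astrocytes (8.36 to 209), 3 of 7 of oligodendrocytes (9.96 to 187), 3 of 6 of endothelial and mural cells (13.4 to 135), 1 of 4 of border macrophages (13.8) and 0 of 5 of monocytes and neutrophils. The 3 tallest values among them belonged to Slc1a3 (209), Mbp (187) and Kdr (135). In sorted cells taken as a whole, a low value from a few cells and a low value from less mark per cell cannot be told apart.

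Where potassium channel genes were marked, the mark was mostly low. Of the 92 genes, 46 were marked in both replicates, a share of 50%, against 59.4% of all autosomal protein-coding genes, and this difference was not tested. A further 10 had a peak in 1 replicate only, against 599 of all 20696 genes. No peak within 1 kb in either replicate was found for 36, against 7806 of all 20696 genes. The median value of the 46 marked channel genes was 26.1 tags per 10 M, against 220 over all 12291 marked genes. Of the marked channel genes, 33 (71.7%) had a value under 50, whereas 13.8% of all marked genes did. Only 3 lay above the median of all marked genes, namely Kcnk6, Kcnj2 and Kcna3, and all 3 were on the list of microglial channels. This list was drawn from general knowledge of microglia but with earlier results of these data known.

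**Figure D1:**
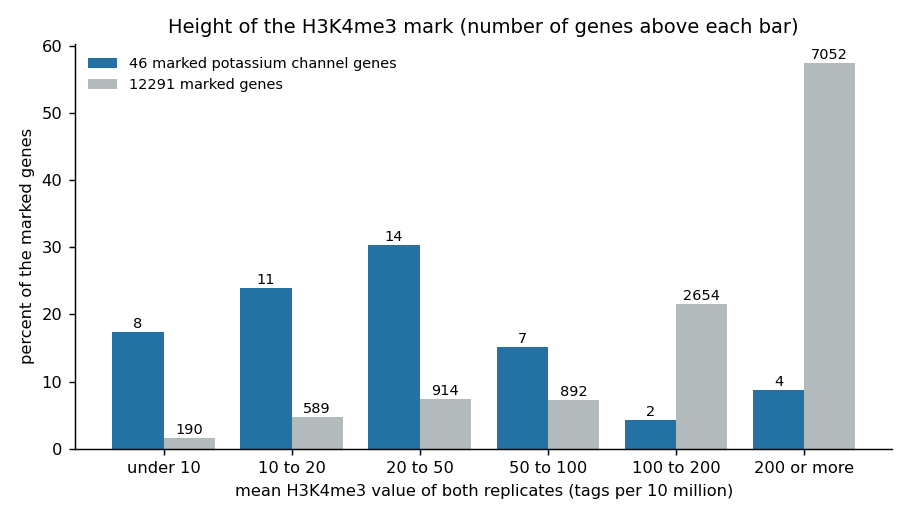
Share of marked genes in each range of the mean H3K4me3 value of both replicates (horizontal axis, tags per 10 M), as a percentage of the 46 marked potassium channel genes (blue) and of all 12291 marked genes (grey), with the number of genes above each bar. The channel genes were most numerous between 20 and 50 (14 genes, 30.4%), whereas 57.4% of all marked genes had 200 or more, a range that held 4 channel genes.

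Among the microglial channels, Kcnk6, Kcnj2 and Kcna3 carried a tall mark at their start sites and Kcnk13 carried one just downstream, whereas Kcna5 and Kcnn4 had none. Kcnk6 (ENSMUSG00000046410), which lies on chromosome 7 with its start at 29232515, had 353.7 tags per 10 M in replicate 1 and 314.8 in replicate 2. The 95% Poisson intervals, which cover counting error only here and below, were 322 to 388 and 286 to 346. Its mean of 334 ± 27.5 (SD, n = 2) was higher than the values of 89.8% of all marked genes. The peak centres lay 164 bp and 151 bp into the gene, and the input held 4.3 and 1.4 tags there. Kcnj2 (ENSMUSG00000041695; chromosome 11, start at 111066164) encodes the classical inward rectifier. It had 296 and 256.6 tags per 10 M, a mean of 276 ± 27.9 (SD, n = 2), above 72.4% of all marked genes. Kcna3 (ENSMUSG00000047959; chromosome 3, start at 107036169), the voltage-gated channel of activated microglia and T cells, had 225.2 and 223.8 tags per 10 M, a mean of 224 ± 0.99 (SD, n = 2), above 51.5% of all marked genes. Kcnk6 was thus the tallest in both replicates, and Kcna3 stood close to the median of all marked genes. The replicate values of Kcnk6 and Kcnj2 did not overlap, and neither did those of Kcnj2 and Kcna3. The intervals were 267 to 327 and 230 to 285 for Kcnj2, and 200 to 253 and 199 to 251 for Kcna3. Those of Kcnk6 and Kcnj2 overlapped in replicate 1, and those of Kcnj2 and Kcna3 in replicate 2.

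Kcnk13 (ENSMUSG00000045404; chromosome 12, 99964499 to 100062682) had no peak within 1 kb of its 2 annotated start sites and was therefore not counted as marked. The nearest peak began 1390 bp from the outermost start in replicate 1, with 271.1 tags per 10 M, and 1319 bp from it in replicate 2, with 273.8. From the other annotated start site the distances were 1364 bp and 1293 bp. These peaks, at chr12:99965889-99966073 and chr12:99965818-99966006, lay within an exon of 1077 bp (99965204 to 99966280) and covered the start codon at 99965947. The input held 1.2 and 2.1 tags there. With a window of 2 kb Kcnk13 would be marked, at a height between those of Kcna3 and Kcnk6 in both replicates. Kcnk13 was the only one of the 36 genes without a peak within 1 kb whose nearest peak was closer than 2 kb.

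**Figure D2:**
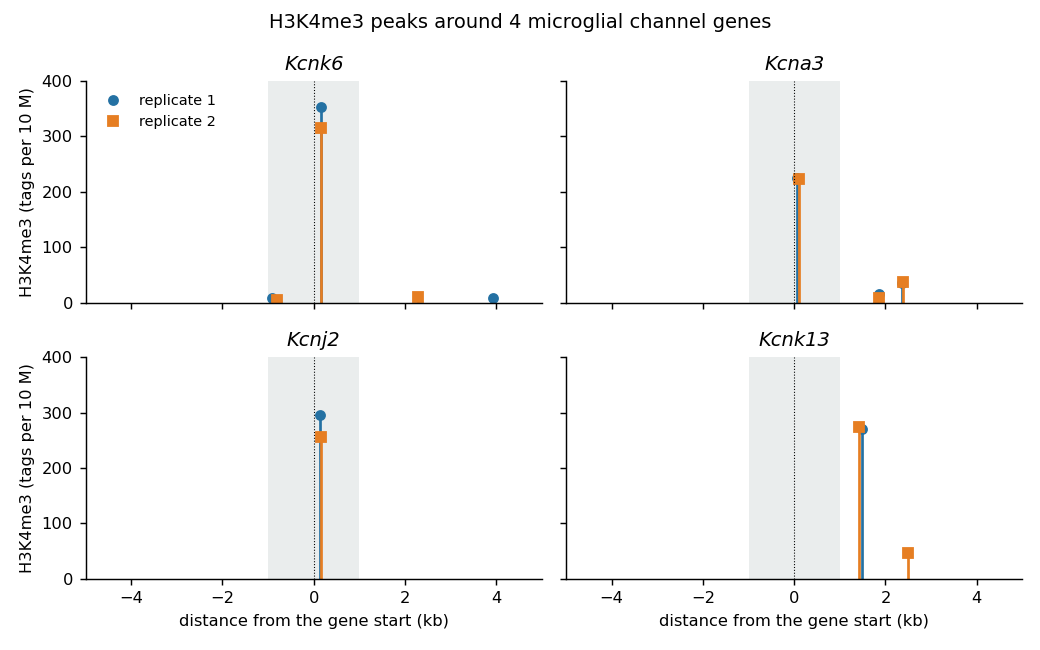
H3K4me3 peaks within 5 kb of the gene start of Kcnk6, Kcna3, Kcnj2 and Kcnk13. The horizontal axis is the distance of the peak centre from the gene start in kb (positive: into the gene), the vertical axis the height in tags per 10 M, circles are replicate 1, squares replicate 2, and the grey band is the window of 1 kb. The tall peak of Kcnk13 (271.1 and 273.8) stands outside the band, whereas those of the other 3 genes stand inside it.

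Kcna5, a voltage-gated channel, had its nearest peak 108536 bp away in replicate 1 and 108212 bp away in replicate 2. Kcnn4, the calcium-activated channel of intermediate conductance, had peaks of only 8.57 and 5.22 tags per 10 M, 3134 bp and 3899 bp from its nearest start site. The lack of a tall mark at these 2 genes was seen in both replicates.

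The microglial channels can be set against their neighbours, since channel genes of one family often lie side by side. Kcna3 lies 65.0 kb from Kcna2, a channel of axons, which was marked at 12.5 and 8.95 tags per 10 M, and Kcna2 lies 81.9 kb from Kcna10, which had no peak. Kcnj2 lies 98.1 kb from Kcnj16, an inward rectifier of glia and kidney, which was marked at 8.57 and 6.71. Another pair went the other way, since Kcna5, which had no peak, lies 111.0 kb from the neuronal channel gene Kcna1, marked at 14.8 and 11.9. Kcna3 and Kcnj2 thus had neighbours with mean values of 10.7 and 7.64, above only 2.0% and 0.5% of all marked genes respectively. The promoters of Kcna3 and Kcna2, of Kcnj2 and Kcnj16, and of Kcnk13 and Kcnma1 are shown from 250 bases before to 50 bases after the RefSeq start site (GRCm38.p6, 5′ to 3′ on the strand of the gene), with each CG dinucleotide in capitals. They are shown because CG-dense promoters are where H3K4me3 is usually found, and because Kcna3 and Kcna2, with like promoters, differed in their mark. Kcna3 spans chr3:107035912-107036211 on the plus strand, Kcna2 chr3:107101317-107101616 on the plus strand, Kcnj2 chr11:111065914-111066213 on the plus strand, Kcnj16 chr11:110967783-110968082 on the plus strand, Kcnk13 chr12:99964249-99964548 on the plus strand and Kcnma1 chr14:24004156-24004455 on the minus strand.
Kcna3: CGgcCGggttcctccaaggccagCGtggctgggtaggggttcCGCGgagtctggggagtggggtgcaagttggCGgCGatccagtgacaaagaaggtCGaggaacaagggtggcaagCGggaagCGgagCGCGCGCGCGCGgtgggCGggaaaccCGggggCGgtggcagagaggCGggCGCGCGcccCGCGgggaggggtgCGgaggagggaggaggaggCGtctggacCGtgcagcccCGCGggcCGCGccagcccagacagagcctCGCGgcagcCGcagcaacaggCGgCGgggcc
Kcna2: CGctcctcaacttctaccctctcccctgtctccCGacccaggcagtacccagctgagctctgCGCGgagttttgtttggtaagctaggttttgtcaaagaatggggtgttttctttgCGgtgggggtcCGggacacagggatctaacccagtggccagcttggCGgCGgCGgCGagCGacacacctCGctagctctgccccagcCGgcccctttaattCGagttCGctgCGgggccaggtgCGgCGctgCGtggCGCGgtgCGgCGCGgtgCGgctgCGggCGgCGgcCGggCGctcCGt
Kcnj2: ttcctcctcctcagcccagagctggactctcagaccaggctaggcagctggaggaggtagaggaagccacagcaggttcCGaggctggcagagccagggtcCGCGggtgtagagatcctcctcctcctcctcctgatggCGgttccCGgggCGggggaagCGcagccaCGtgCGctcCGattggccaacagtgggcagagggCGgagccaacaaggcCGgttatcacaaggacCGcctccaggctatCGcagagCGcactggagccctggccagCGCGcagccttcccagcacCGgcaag
Kcnj16: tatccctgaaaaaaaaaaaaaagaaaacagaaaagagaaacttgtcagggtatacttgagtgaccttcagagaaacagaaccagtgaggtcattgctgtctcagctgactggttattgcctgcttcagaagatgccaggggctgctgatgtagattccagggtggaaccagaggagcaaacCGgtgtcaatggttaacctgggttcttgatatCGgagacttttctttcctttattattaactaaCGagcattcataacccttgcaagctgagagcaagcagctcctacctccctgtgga
Kcnk13: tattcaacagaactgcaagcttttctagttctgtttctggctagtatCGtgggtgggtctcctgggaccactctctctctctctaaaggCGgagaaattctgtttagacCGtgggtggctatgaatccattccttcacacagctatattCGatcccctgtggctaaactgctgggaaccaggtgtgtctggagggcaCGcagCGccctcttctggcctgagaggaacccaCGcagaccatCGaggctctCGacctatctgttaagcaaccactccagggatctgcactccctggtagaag
Kcnma1: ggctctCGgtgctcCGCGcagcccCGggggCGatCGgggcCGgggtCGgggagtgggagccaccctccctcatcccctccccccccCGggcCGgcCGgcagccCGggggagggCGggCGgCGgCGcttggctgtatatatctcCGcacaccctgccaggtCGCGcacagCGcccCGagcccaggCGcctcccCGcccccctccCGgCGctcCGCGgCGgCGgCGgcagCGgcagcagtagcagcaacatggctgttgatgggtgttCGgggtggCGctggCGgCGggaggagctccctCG

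The Kcna3 and Kcna2 promoters were both dense in CG, with 37 and 31 CG dinucleotides in 300 bases and observed-to-expected ratios of 0.952 and 0.932, although their marks were 224 and 10.7 tags per 10 M. The Kcnj2 promoter held 18 (ratio 0.54) and that of Kcnj16 held 3 (ratio 0.204). The Kcnj16 window is at the gene's outermost start, and the low mark of Kcnj16 stood at another start site, with peak centres 29477 bp and 29497 bp from this one in the 2 replicates. The Kcnk13 window, which overlapped no peak, held 9 (ratio 0.434). The Kcnma1 window held 36 (ratio 0.789) and was overlapped by the gene's peak in both replicates. The RefSeq promoter table held 68 of the 92 channel genes (73.9%), too few for a comparison of promoter composition or motifs over the channel genes, and none was made. Kcnk6 was among the genes not in the table.

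The 4 channel genes of the study's microglia signature were all marked. The study chose that signature on RNA of microglia, so that their mark is not independent evidence that they are microglial. Kcnk12, the closest relative of Kcnk13, had 180 and 231.2 tags per 10 M (mean 206 ± 36.2, SD, n = 2). Its replicates straddled the median of all marked genes. Kcnma1, the pore of the large-conductance calcium- and voltage-activated channel, had 192.4 and 181.3 (mean 187 ± 7.85, SD, n = 2), at a start site inside the gene and not at its outermost start. Kcnj12, a close relative of Kcnj2, had 63.1 and 41 tags per 10 M, and Kcnip3, a calcium-binding partner of voltage-gated channels, had 42.8 and 49.2. In Kcnip3 the tallest peak lay at a different start site in each replicate. Kcnk12 and Kcnma1 thus stood close to the microglial channels, and Kcnj12 and Kcnip3 stood well below them.

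Among the genes on no cell type list, the tallest were 3 auxiliary subunits and 2 channel subunits. Kcnab2, a cytoplasmic beta subunit of voltage-gated channels, had 201 and 139.5 tags per 10 M, but its peak also lay within 1 kb of the start of Nphp4 and cannot be assigned to one of the 2 genes. Kcnab3, another beta subunit, had 82.6 and 87.3. Kcnn3, a small-conductance calcium-activated channel, had 61.5 and 82.8, and Kcng3, a silent voltage-gated subunit, had 69.3 and 55.9. Kcnmb4, the beta subunit that accompanies Kcnma1 in brain, had 56.9 and 52.2. Kcnab2 was the tallest, Kcnab3 came next and Kcnmb4 was the lowest in both replicates, whereas the order of Kcnn3 and Kcng3 turned and they did not differ beyond the replicate spread.

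The neuronal channels were marked about as often as genes in general but low. Of the 31 genes on this list, 18 were marked (58.1%, against 59.4% of all genes), 5 had a peak in 1 replicate only and 8 had none. The median value of the 18 was 15.4 tags per 10 M, and 17 of them (94.4%) lay under 50. None reached the median of all marked genes. The tallest was Kcnd3, the A-type channel that opens at subthreshold potentials, with 61.5 and 50 tags per 10 M (95% intervals 48.7 to 76.6 and 38.7 to 63.5). By mean value it was followed by Kcnc2, of fast-spiking interneurons, with 46.7 and 35.1, although Kcnn1 (23.4 and 38.8) stood above Kcnc2 in replicate 2. At the low end stood Kcnn2, a small-conductance calcium-activated channel, with 7.01 and 10.4, and Kcnh7, a relative of the cardiac Kcnh2, with 5.45 and 9.7. The highest neuronal channel thus lay below the lowest marked microglial channel in each replicate, at 61.5 against 225.2 and at 50 against 223.8. This holds for marked genes only, since just 3 of the 6 microglial channels were marked (50%, against 58.1% of the neuronal channels). Both lists were chosen with earlier results of these data known. The 4 marked neuron markers (Snap25, Tubb3, Map2 and Slc17a7) had values of 9.16 to 16.3, Rbfox3 and Syt1 had a peak in replicate 1 only (10.9 and 7.01), and Gad1 and Gad2 had none. The part of neuronal material in the low marks of the channel genes was not tested.

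**Figure D3:**
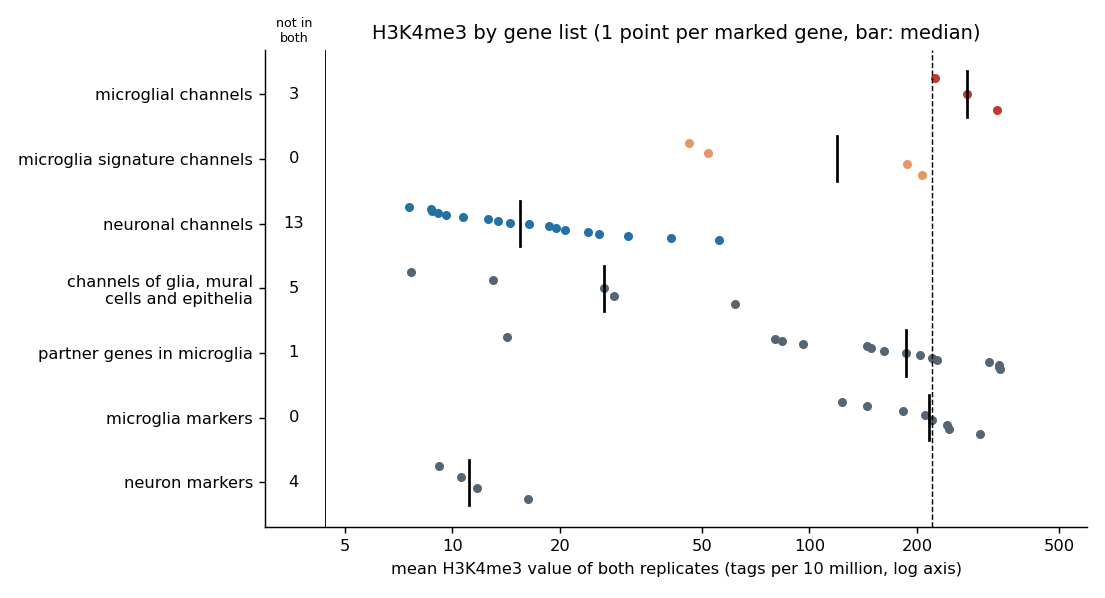
Mean H3K4me3 value of both replicates (horizontal axis, tags per 10 M, log axis) for each marked gene of 7 gene lists, with the list median as a black bar, the median of all marked genes (220) as a dashed line and the number of genes not marked in both replicates at the left. The marked microglial channels (224 to 334) lie to the right of every marked neuronal channel (7.57 to 55.8).

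Channels typical of other glia, mural cells and epithelia, a list that also held the sperm channel gene Kcnu1, were also low. Of the 10 genes, 5 were marked, with a median of 26.6. Kcnj10, the inward rectifier by which astrocytes buffer potassium, had 54.5 and 69.4 tags per 10 M, the highest of the list. Kcnk5, a channel of epithelia, had 32.7 and 23.9, and Kcnq1, a channel of heart and epithelia, had 22.6 and 30.6. Kcnj8, the pericyte channel, had 17.1 and 8.95, and Kcnj16 had the values given above. Kcnj1, Kcnj13, Kcnj15, Kcne1 and Kcnu1 had no peak. The astrocyte markers beside them were marked at 20.5 (Aldh1l1), 17.1 (Gja1), 8.36 (Slc1a2) and 209 (Slc1a3), and Gfap and Aqp4 had no peak. The part of astrocyte material in the mark of Kcnj10 was not tested.

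Among the families, the group of channels activated by calcium or sodium was taken to include the sperm channel gene Kcnu1, which was not marked. A mark was present in 6 of 8 genes of this group (75%, median value 25.9). In pore-forming voltage-gated channels a mark was present in 19 of 29 (65.5%, median 19.5). Both shares lay above the 59.4% of all genes, in groups of few genes, and the difference was not tested. A mark was present in 7 of 14 tandem-pore channels (median 27) and 7 of 15 inward rectifiers (median 49.0). Of the auxiliary subunits 5 of 16 had one (median 54.5), and of the silent voltage-gated subunits 2 of 10, Kcng3 and Kcng2. The marked genes of the voltage-gated family were thus mostly low, since 17 of the 19 lay under 50 and Kcna3 was the single gene above 220. The 4 Kcne subunits had no mark, whereas all 4 Kcnc channels and both Kcnt channels had a low one, with highest values of 40.9 and 20.7. Each of the 3 tallest genes came from a different family.

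**Figure D4:**
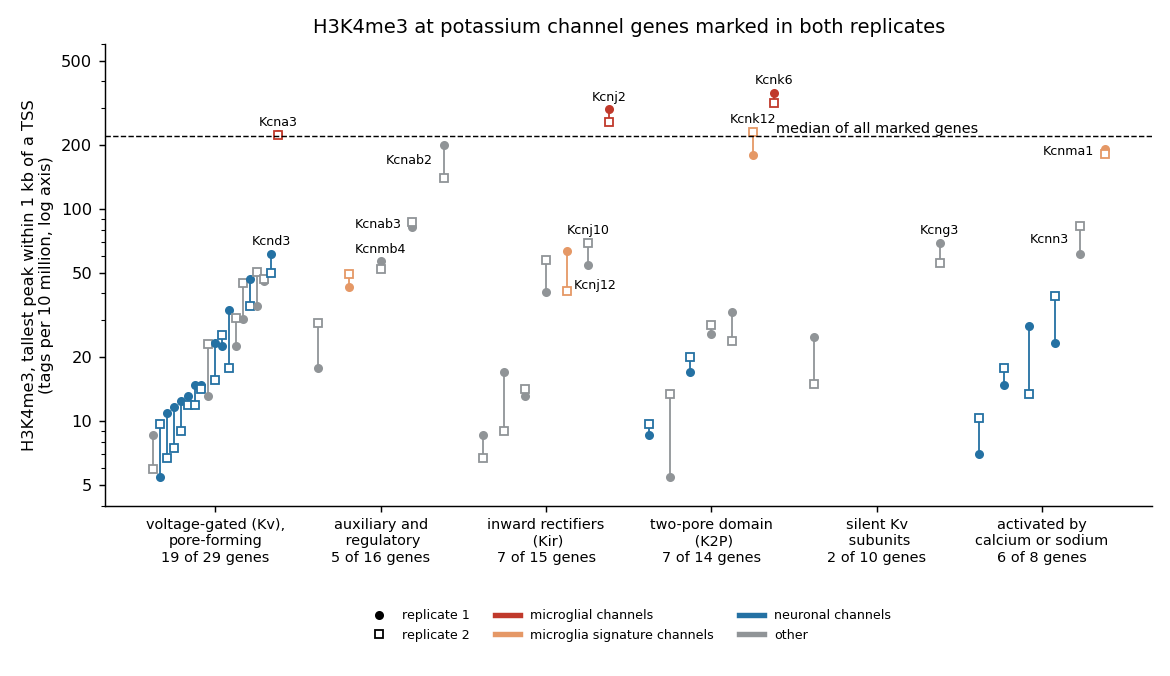
H3K4me3 value of each potassium channel gene marked in both replicates, by family (horizontal axis, with the number marked of all genes in the family) and on a log axis in tags per 10 M. Circles are replicate 1, squares replicate 2, a line joins the replicates of a gene, colours give the list, genes with a mean of 50 or more are named, and the dashed line is the median of all marked genes (220), above which the means of Kcnk6, Kcnj2 and Kcna3 lie.

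The replicates were closest for the tall genes. Over the 46 marked channel genes the log2 ratio of replicate 2 to replicate 1 had an SD of 0.53, and 44 of them agreed within 2-fold, against an SD of 0.31 over all marked genes. For values under 50 the SD was 0.60 over 33 channel genes and 0.61 over all 1693 marked genes in that range, so that the larger spread of the channel genes went with their low height. The 2 genes that differed more than 2-fold were Kcnk1 (5.45 and 13.4) and Kcnt2 (28 and 13.4), both low, and this pair was named after its values were seen. Among the 10 genes with a peak in 1 replicate only, Kcna6 had the highest value, 15.7 in replicate 2. Kcng1 (8.21) and Kcnj3 (6.71) also had a peak in replicate 2, and Kcnq3 (10.9), Kcnab1 (10.1), Kcnj9 (8.57), Kcnk3 (8.57), Kcnb2 (7.01), Kcnd2 (6.23) and Kcnh8 (4.67) had one in replicate 1. The lowest of these, Kcnh8, lay close to the lowest peak of its file, whereas Kcna6, Kcnq3 and Kcnab1 stood well above it. For the 36 genes with no peak, the nearest peak was a median of 53.7 kb away, and for 12 of them it was over 100 kb away.

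PLAC-seq joins 5 kb bins that are close in the nucleus and enriches for contacts of H3K4me3-marked chromatin. Each interaction in the list had a number of read pairs and the number expected for its distance and coverage. At least 1 interaction was found at a start site of 15 of the 92 channel genes (16.3%), against 24.7% of all autosomal protein-coding genes. Of the 46 marked channel genes, 11 had one (23.9%), against 37.8% of all marked genes. The other 4, Kcnj9, Kcnk13, Kcne2 and Kcnn4, had an interaction without being marked, as did 473 of all 20696 genes. The list holds contacts of both libraries together, so that the spread between PLAC-seq replicates is not known.

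The comparison was with all 26689 interactions, of which only 14781 had a start site of an autosomal protein-coding gene in a bin. The 86 interactions of channel genes had a median distance of 200 kb, against 125 kb, and 48.8% of them exceeded 200 kb, against 28.5%. Their median number of read pairs was 13, against 17, and their median ratio of observed to expected pairs was 4.53, against 4.03. Of the 86, 61 belonged to 5 genes, Kcnma1 (14), Kcnip2 (13), Kcnj2 (12), Kcnj9 (11) and Kcnk9 (11). The other bin held an H3K4me3 peak of both replicates in 14 cases and a start site of a coding gene in 11. It lay in the channel gene itself in 20 and between genes in 26. These counts were not set beside all interactions, so they cannot be called particular to channel genes. Neighbouring bins are not independent, and many of these interactions belong to the same cluster of adjacent bins. The medians above thus describe a few places more than the channel genes at large.

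**Figure D5:**
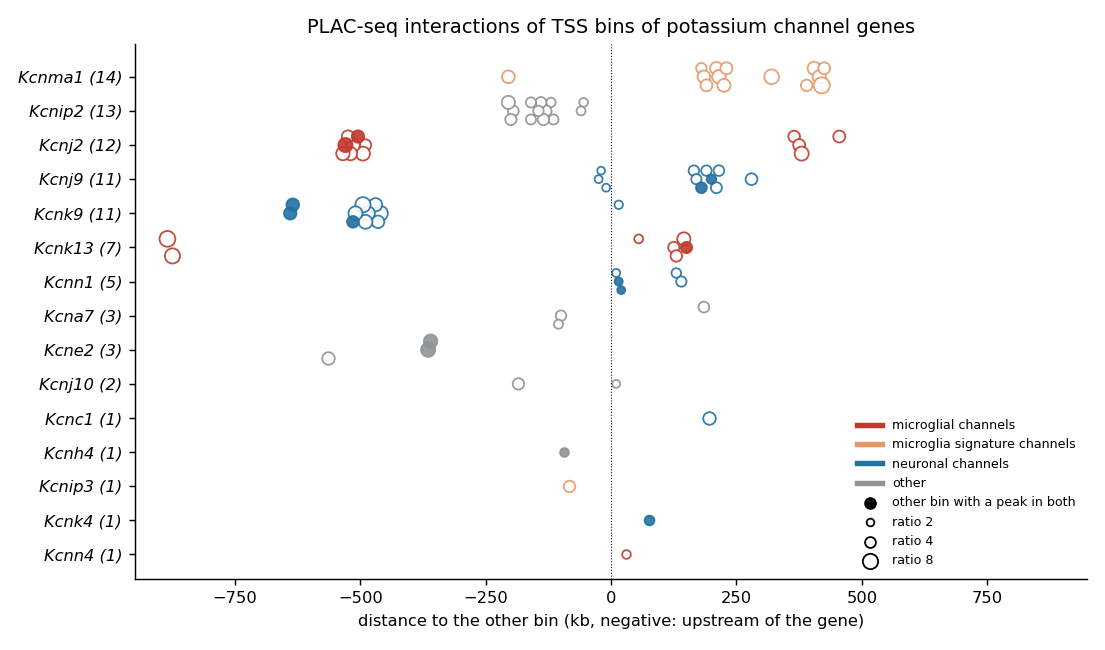
Interactions of the start-site bins of 15 potassium channel genes (rows, with the number of interactions). The horizontal axis is the distance to the other bin in kb, negative for upstream of the gene, the size of a circle is the ratio of observed to expected read pairs, colours give the list, filled circles mark other bins with a peak in both replicates, and points of a gene are spread vertically for legibility. Kcnj2 reaches 535 kb, Kcnk9 640 kb and Kcnk13 885 kb, and the contacts of Kcnn1 and Kcnip2 stay within 205 kb.

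Of the microglial channels, Kcnj2, Kcnk13 and Kcnn4 had interactions, whereas Kcnk6, Kcna3 and Kcna5 had none at their start sites. Kcnj2 joined intergenic bins on both sides, 8 of them 490 to 535 kb upstream and 4 of them 365 to 455 kb downstream. Its strongest contact, 530 kb upstream, had 15 read pairs where 2.19 were expected (ratio 6.85), and that bin held low peaks of 52.2 and 55.9 tags per 10 M. Another upstream bin, 505 kb away, held peaks of 21 and 9.7. None of the 12 bins held the start of a coding gene.

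Kcnk13 joined 5 bins 55 to 150 kb downstream and 2 bins 875 and 885 kb upstream. The contact at 885 kb was intergenic, with 13 read pairs where 1.52 were expected (ratio 8.54). The contact at 150 kb reached the start of Psmc1, a proteasome subunit, whose bin held peaks of 346.7 and 317.8 tags per 10 M, and had 18 read pairs where 4.17 were expected (ratio 4.32). The tall H3K4me3 peak of Kcnk13 lies in the next bin, which had more contacts than the start-site bin. Among them were the Psmc1 bin (18 read pairs, 6.14 expected, ratio 2.93) and a bin 135 kb downstream (22 read pairs, 4.66 expected, ratio 4.72). Another was a bin 885 kb upstream (10 read pairs, 1.78 expected, ratio 5.62). Over the whole gene of 98.2 kb there were 22 interactions, 15 more than at the start sites.

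Kcnn4 had a single contact over 30 kb to a bin in Smg9, with 23 read pairs where 8.99 were expected (ratio 2.56). Kcnk6 had no contact of its start-site bin, and a bin elsewhere in the gene joined the Catsperg1 start over 15 kb (31 read pairs, 13.3 expected, ratio 2.33). Of the 6 channel genes with a value of 100 or more, Kcnj2 and Kcnma1 had contacts of their start-site bins (12 and 14). The others, Kcnk6, Kcna3, Kcnk12 and Kcnab2, had 0, and 37.8% of all marked genes had an interaction.

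All 14 contacts of Kcnma1 lay within its own gene, which spans 725.1 kb. In 13 of them the bin of the marked start site joined introns 180 to 425 kb downstream, and the last joined an inner start site to the bin beside the marked one. The ratios ran from 3.8 to 8.83. The contact at 420 kb had 14 read pairs where 1.59 were expected (ratio 8.83), and the one at 215 kb had the most read pairs, 20 where 3.18 were expected (ratio 6.29). No bin at the other end held a peak in both replicates. With all bins of the gene there were 27 contacts, and the strongest, with a ratio of 12.2, ran over 220 kb from the bin beside the marked start site. Kcnip3 had 1 contact over 85 kb with 18 read pairs (ratio 4.54), and Kcnj12 had 0.

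Of the 31 neuronal channels, 5 had an interaction, 16.1% against 24.7% of all genes. Kcnk9, an acid-sensitive tandem-pore channel that is imprinted in brain, had 11 although its mark was only 8.57 and 9.7 tags per 10 M. Of these, 8 reached bins of its neighbour Trappc9, 460 to 515 kb upstream, and the strongest had 13 read pairs where 1.63 were expected (ratio 7.96). The bin at 515 kb held a start of Trappc9 and peaks of 286.7 and 280.5, and the bin at 635 kb held the Ago2 start and peaks of 229 and 239.4. In all, 3 of its 11 contacts reached bins with tall peaks, whereas its own mark was low.

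Kcnj9, a subunit of the G-protein-gated rectifiers, had a peak within 1 kb of a start site in replicate 1 only. Its start-site bin held taller peaks outside that window, at 23.4 tags per 10 M in replicate 1 and 31.3 in replicate 2. Kcnj9 also had 11 interactions, all of them from this bin. Among them were 1 with the Pex19 start (200 kb, 13 read pairs, ratio 3.13) and 1 with the Dcaf8 start (180 kb, 25 read pairs, ratio 4.01), whose bins held peaks of 252.4 and 252.1 and of 325.7 and 352.8 tags per 10 M. Its neighbour Kcnj10, 11.9 kb away, had 2 contacts of its own, 1 inside the gene (10 kb, 55 read pairs, ratio 2.17) and 1 in Dcaf8 (185 kb, 13 read pairs, ratio 4.39). Bins further inside Kcnj10 joined the start of Dcaf8 over 200 to 225 kb and that of Kcnj9 over 20 and 25 kb.

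The other 3 neuronal channels had few. Kcnn1, a small-conductance calcium-activated channel, had 5 contacts over 10 to 140 kb, of which 3 stayed inside the gene. Kcnk4, a mechanosensitive tandem-pore channel, had 1 with the start of Ccdc88b (75 kb, 25 read pairs, ratio 3.28), where peaks of 70.9 and 73.1 stood. Kcnc1, of fast-spiking neurons, had 1 in Sergef (195 kb, 10 read pairs, ratio 5.42).

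Among the remaining genes, Kcnip2, a calcium-binding partner of Kcnd channels in heart and brain, had 13 contacts 55 to 205 kb upstream, 10 of them in Armh3, and none with a marked bin. Kcne2, an auxiliary subunit with no peak, had 3 contacts 360 to 565 kb upstream, and 2 of them were with the start of Atp5o, whose bin held peaks of 284.4 and 249.9. Kcnh4 joined the start of Stat5b over 95 kb (18 read pairs, ratio 2.66; peaks of 272.7 and 324.5). Kcna7 had 3, of which 2 were with exons of Trpm4, itself a cation channel gene, at 100 and 105 kb (32 and 19 read pairs, ratios 3.75 and 2.84).

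Kcnq1 had contacts of its gene body and none of its start sites. The bins of its gene body had 14 interactions over 270 to 330 kb, all of them with the 3 bins from 143455001 to 143470000 on chromosome 7, 1 of which holds the start of Cdkn1c, an imprinted growth inhibitor in the same imprinted domain. The strongest had 29 read pairs where 1.74 were expected (ratio 16.6), the highest ratio of any channel gene. The mark at the Kcnq1 start was 22.6 and 30.6 tags per 10 M. With gene bodies counted, 23 channel genes had an interaction, of which 8 had none at a start site. Long genes hold more bins, and these counts were not set beside all genes, so they describe no trait of channel genes.

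Genes that act with these channels in microglia were mostly marked. Of the 16 partner genes, 15 were marked (93.8%, against 59.4% of all genes), with a median of 186 tags per 10 M against 26.1 for the marked channel genes and 220 for all marked genes. Above the last value stood 5 of the 15, and Il1b was the one without a peak. P2ry12, the receptor that opens the Kcnk13 channel, had 134.8 and 154.4, and 6 interactions. P2rx7 and P2rx4, ion channels opened by ATP, had 166.7 and 131.3, and 186.2 and 221.5, with 1 and 2 interactions. The inflammasome genes Nlrp3 and Casp1 had 84.1 and 76.1, and 84.9 and 82.1. Orai1 and Stim1, of store-operated calcium entry, had 330.3 and 305.8, and 275.8 and 405. Atp1b3, a subunit of the pump that returns potassium to the cell, had 166.7 and 205.1. Among other channels, Lrrc8a (364.6 and 314.8), Trpm7 (218.1 and 238.7), Trpm4 (210.3 and 229), Trpv2 (162 and 162.6) and the proton channel Hvcn1 (95 and 96.2) were all taller than any neuronal potassium channel, and Trpm2 (18.7 and 9.7) was not.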

How the data were processed

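H3K4me3 peaks were taken from 2 wild-type libraries and interactions from 1 list combined from 2 wild-type PLAC-seq libraries. In the deposited peak files, 1 per library, the authors give a normalized signal in tags per 10 M, tag counts and scaled input tags. The submitters' processing notes name Bowtie2, HOMER and mm10. In the deposited interaction list, made with MAPS per the study's methods, the authors give the count of read pairs per pair of 5 kb bins, the expected pairs as a signal, and FDR values, which are adjusted p-values (highest 0.01, at least 7 read pairs and a ratio of 2). Per the study's methods, peaks that guided the interaction calls came from another pipeline than HOMER. Genes and TSSs of protein-coding transcripts were those of GENCODE M21 (basic, mm10), keyed by symbol. A peak belonged to a gene if its nearest edge lay within 1 kb of a TSS, and an interaction if an anchor bin held a TSS. Intervals are exact Poisson (95%). Matching of peaks and bins was tested on simulated data. Python 3.11.15, pandas 2.3.3, numpy 2.4.6 and scipy 1.17.1 were used. The channel genes and lists were chosen with earlier results of these data known. Genes were named if on the microglial, signature, glial or partner lists, among the 12 tallest or the 10 with most interactions, if neuronal with an interaction, or if peak and interaction calls disagreed, and examples named besides were chosen after their values were seen. With no groups to compare, no test was made. Alternatives to the distance, height, TSS, bin and interaction limits were tried. The selectivity filter of the proteins and promoter motifs were not analysed here. A few genes of the lists are not reported here.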

Additional observations from a re-analysis of the deposited data

How the results depend on the processing

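Of 62 alternatives, 44 left the count within 1.5 times, or the median within 1 SD between replicates (1.1), of the value given. The number of marked channel genes was between 36 and 56 except with a peak overlapping the TSS (16, with 0 microglial and 4 neuronal channels) and with at least 50 tags per 10 M in both replicates (12, with 3 microglial channels and 1 neuronal channel). The 3 marked microglial channels were the same genes under the other alternatives, with Kcnk13 added at 2 kb. Leaving out a replicate gave 49 and 53 marked genes and medians of 23.9 and 22.6, and summing peaks gave a median of 32.6. Channel genes with an interaction numbered 9 with 1 interaction per cluster and 23 with the gene body. Neuronal channels with one numbered 3 at an FDR of at most 0.0001 and 3 with 1 per cluster. Microglial channels with one numbered 2 at that FDR and 2 with 1 per cluster (Kcnj2 and Kcnk13 both times). They numbered 2 with at least 20 read pairs (Kcnk13 and Kcnn4, without Kcnj2) and 4 with the gene body, which added Kcnk6. The count of 86 interactions was least stable, at 28 (FDR at most 0.0001), 17 (at least 20 read pairs), 14 (1 per cluster), 142 (1 bin added on each side), 153 (gene body) and 56 (gene start only). No paired analysis was possible because there was a single group and no test. Peaks of a few tags, contacts in a single list and 5 kb bins limit what low marks and single contacts can show.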

Other observations

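The channel genes on the X chromosome lay outside the rule. Kcnd1, an A-type channel related to Kcnd3, had H3K4me3 values of 63.9 and 74.6 tags per 10 M in replicates 1 and 2, which would place it among the taller channel genes, and Kcne1l had no peak. Neither had an interaction. Beside Kcnq1, the genes with interactions in the gene body and none at a start site included Kcnd3 (2, over 285 and 290 kb), Kcng2 (1), Kcnj4 (2), Kcnk6 (1), Kcnk7 (1) and Kcnmb3 (1).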
